A study of Mus musculus with 4 samples.

Results

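The 5 Tfap2 genes (Tfap2a, Tfap2b, Tfap2c, Tfap2d and Tfap2e), of 21938 protein-coding genes in the annotation, were examined for H3K27me3, the trimethylation of lysine 27 on histone H3 that the Polycomb enzyme Ezh2 deposits. They were chosen by name, and every peak in a gene or within 20 kb of it was taken. This gave 61 of 10223 peaks in a library made from 500 cells and 25 of 15282 peaks in a library made from 15000 cells. The gene-annotated peak tables carried a Tfap2 symbol on 54 and 27 rows, and the differences are described with Tfap2a, Tfap2c and Tfap2d.

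The cells were erythro-myeloid progenitors (EMPs), blood progenitors that arise from the yolk sac endothelium, taken from E10.5 mouse embryos. They were profiled by CUT&RUN, in which an antibody guides a nuclease that releases the DNA around its target for sequencing. Of 4 libraries, 2 carried H3K27me3 and 2 an IgG control, each with 1 library per cell number, so no value here has a replicate. All came from C57BL/6 mice whose genotype label reads wild type beside Ezh2fl/fl and Tie2-Cre+/+, where Tie2-Cre is a Cre line active in endothelium and its blood progeny, and EMPs were isolated by surface markers. The study describes the profiled EMPs as wild type, and they were taken as such here. The sources used here do not give how many embryos each library came from. The 500-cell library had 17 PCR cycles and 76 bp paired-end reads, and the 15000-cell library had 16 cycles and 59 bp paired-end reads from another instrument. Peaks were called at p-value thresholds of 0.01 and 0.05, respectively, although the study's command listing pairs each threshold with the library of the other cell number. Cell number, sequencing and threshold therefore cannot be told apart, and IgG peaks were not used here. Within 3 kb of the gene start, 9.92% of all genes had a peak with 500 cells and 17% with 15000 cells. Of 12 EMP markers, 0 had a peak within 3 kb of the gene start with 500 cells and 1 (Gata2) had one with 15000 cells. For short lists of markers of other cells the counts at 500 and 15000 cells were 1 and 3 of 7 endothelial, 2 and 2 of 7 visceral endoderm, 1 and 2 of 6 primitive erythroid, and 2 and 2 of 5 mesenchyme genes.

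Tfap2 genes encode the AP-2 transcription factors, which bind GC-rich DNA as homodimers or heterodimers through a conserved helix-span-helix domain. The family is best known for neural crest, surface ectoderm, kidney, trophoblast and nervous system development. H3K27me3 over the start and body of such developmental regulators is the typical mark of Polycomb repression in lineages that do not use them.

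DNA upstream of the starts is shown first because the 2 lists differed in whether a peak reached the start. For Tfap2d and Tfap2e the 250 bases before a RefSeq transcript start are given. For Tfap2a and Tfap2b they are the 250 bases closest to the gene start of an upstream 500-cell peak. The nearest peak was taken whose 250 bases held no exon, which at Tfap2b was the nearest of all, 62 bp away, and at Tfap2a the next one, 906 bp away, since the nearest was 238 bp wide. All are on mm10 (GRCm38.p6), 5′ to 3′ on the strand of the gene, and capitals mark CpG dinucleotides, the sequence in which Polycomb-marked starts are typically rich.
Tfap2a, chr13:40739282-40739531, minus strand: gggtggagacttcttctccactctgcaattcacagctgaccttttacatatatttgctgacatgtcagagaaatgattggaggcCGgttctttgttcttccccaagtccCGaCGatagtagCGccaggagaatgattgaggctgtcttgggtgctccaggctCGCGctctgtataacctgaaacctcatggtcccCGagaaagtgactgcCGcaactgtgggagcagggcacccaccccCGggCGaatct
Tfap2b, chr1:19208603-19208852, plus strand: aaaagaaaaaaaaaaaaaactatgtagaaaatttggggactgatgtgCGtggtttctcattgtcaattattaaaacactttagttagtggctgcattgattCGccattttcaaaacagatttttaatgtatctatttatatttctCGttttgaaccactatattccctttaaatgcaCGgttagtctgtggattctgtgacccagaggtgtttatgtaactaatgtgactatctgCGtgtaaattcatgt
Tfap2d, chr1:19102772-19103021, plus strand: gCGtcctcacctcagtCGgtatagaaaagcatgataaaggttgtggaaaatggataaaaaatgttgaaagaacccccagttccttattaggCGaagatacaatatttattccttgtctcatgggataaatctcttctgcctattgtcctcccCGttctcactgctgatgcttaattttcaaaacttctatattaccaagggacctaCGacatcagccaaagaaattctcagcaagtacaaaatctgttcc
Tfap2e, chr4:126736270-126736519, minus strand: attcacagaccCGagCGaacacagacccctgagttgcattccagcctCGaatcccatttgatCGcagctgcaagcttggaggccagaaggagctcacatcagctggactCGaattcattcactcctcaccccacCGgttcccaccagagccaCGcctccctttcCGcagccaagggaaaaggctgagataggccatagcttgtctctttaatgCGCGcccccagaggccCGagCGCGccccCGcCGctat
The Tfap2e stretch held 15 CpGs, the Tfap2a stretch 10, and the Tfap2b and Tfap2d stretches 5 each. The Tfap2a and Tfap2b stretches lie inside a 500-cell peak by choice. Of the stretches taken by RefSeq start, all 250 bases at Tfap2d and 132 at Tfap2e lay inside one. All 4 stretches lay wholly inside a 15000-cell peak. The AP-2 consensus GCCNNNGGC, which reads the same on both strands, was not found in these stretches. In the RefSeq promoter table, which lists starts for 4 of the 5 genes, 13.7% of 32851 promoters held the motif in the 250 bases before the start, and 0 of the 7 Tfap2 windows did. The 7 windows are not independent, since those of Tfap2d overlap in part. Those of Tfap2a and Tfap2b precede starts inside the gene and are mostly exon, so the promoters at these gene starts were not counted. With so few windows, 0 cannot be told apart from the share of all promoters. Tfap2c was not listed.

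H3K27me3 peaks lay at all 5 Tfap2 genes in both libraries. Among all protein-coding genes, 18.6% had a peak in the same window with 500 cells, 30.1% with 15000 cells and 18% with both. Within 3 kb of the gene start, 5 of 5 genes had a peak in each library, against 9.92% and 17% of all genes (9.82% in both). The libraries differed at the gene start itself. With 15000 cells a peak lay across the start of all 5 genes (8.63% of all genes), and each of these peaks was over 5 kb wide (2.16% of all genes), from 7944 to 11452 bp. With 500 cells a peak lay across the start of 2 genes, Tfap2d and Tfap2e (1.4% of all genes, and 1.31% in both libraries), and at Tfap2e it reached the start with its last base alone. At the other 3 genes the nearest 500-cell peak stopped 331 bp (Tfap2a), 62 bp (Tfap2b) and 109 bp (Tfap2c) from the start. Counting any annotated transcript start, 5 of 5 genes had a start inside a 500-cell peak (2.42% of all genes). Joining 500-cell peaks within 1 kb left the count at 2 of 5 (2.37% of all genes), and joining within 3 kb raised it to 5 of 5 (4.8%). No 500-cell peak over 5 kb lay across a Tfap2 start (0 of 5, against 0.0456% of all genes, and 0.041% in both libraries).

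**Figure D1:**
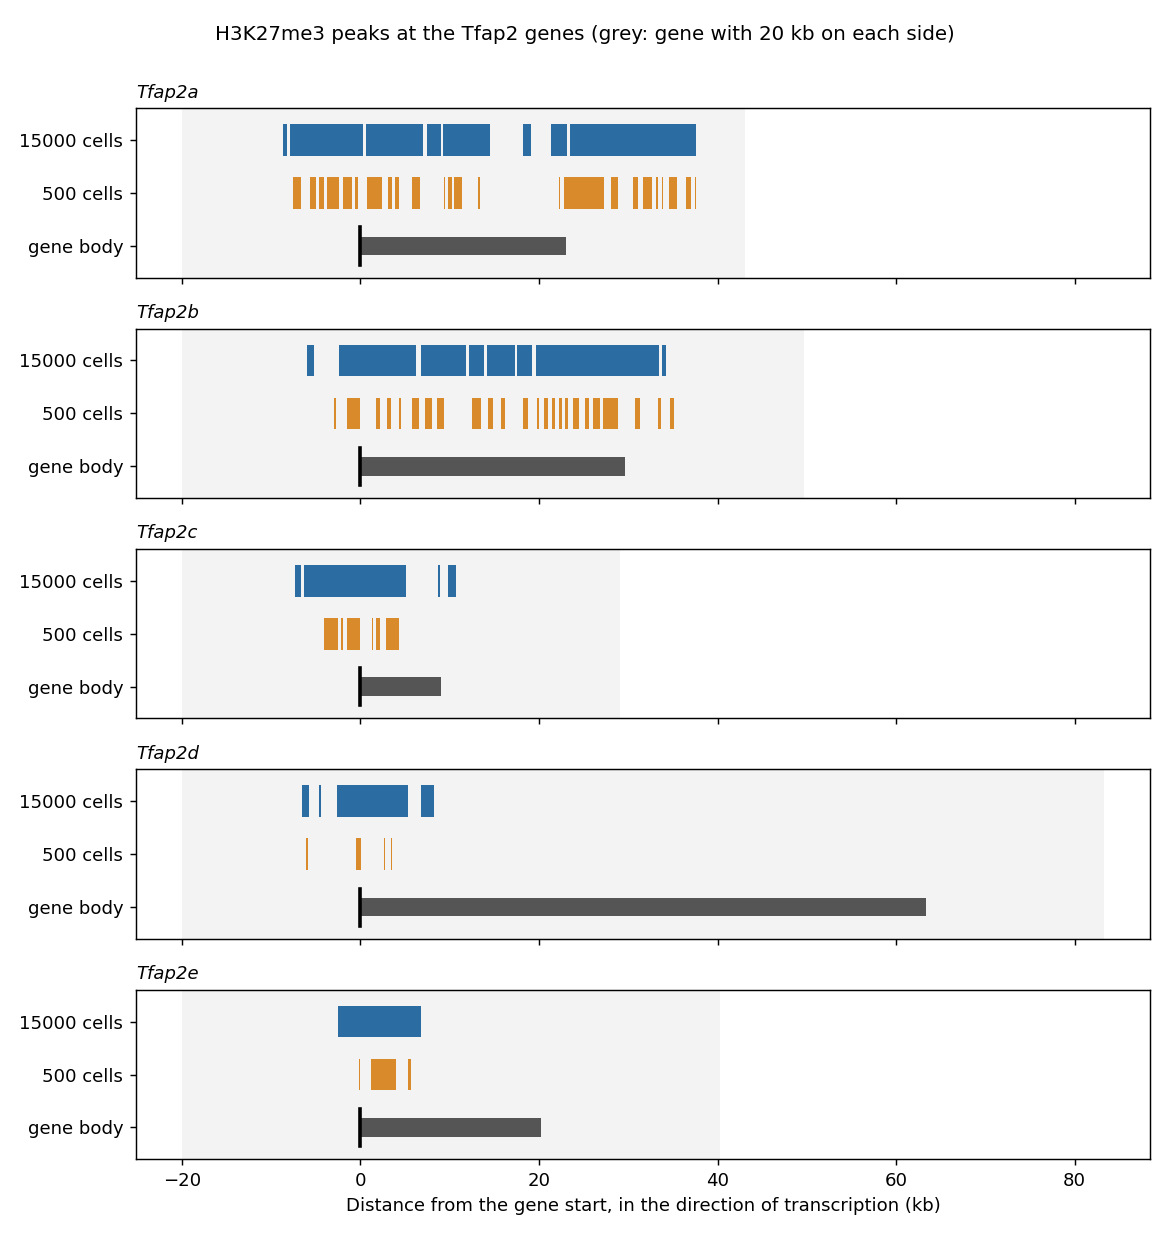
Peaks of both libraries at the 5 Tfap2 genes, drawn to scale against distance from the gene start in kb in the direction of transcription; orange bars are 500-cell peaks, blue bars 15000-cell peaks, dark bars gene bodies, and grey shading the gene with 20 kb on each side. A blue domain lies across each of the 5 starts, and 59 of the 61 orange peaks overlap a blue peak.

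Together the windows held 42926 bp inside peaks with 500 cells and 107032 bp with 15000 cells, a ratio of 2.49, against 4.03 for the bases of all peaks. The bases of the 2 lists were nested: 97% of the 500-cell bases at the Tfap2 genes also lay in a 15000-cell peak, while 38.9% of the 15000-cell bases lay in a 500-cell peak. The matching shares of bases over all peaks are not given here. By peak, 59 of 61 (96.7%, 95% exact interval 88.7 to 99.6) of the 500-cell peaks overlapped a 15000-cell peak, against 91.2% of all 500-cell peaks. The 2 that did not were at the flanks of Tfap2b and measured 137 and 417 bp. In the other direction 15 of 25 (60%, 38.7 to 78.9) overlapped, against 32.2% of all 15000-cell peaks. The 10 that had no counterpart were 228 to 1509 bp wide. Of the 25 peaks, 10 were over 5 kb wide, against 5.73% of all 15000-cell peaks. All 10 overlapped a 500-cell peak, as did 99% of all wide 15000-cell peaks, and each overlapped 2 to 11 separate ones. Intervals cover counting error only, and neighbouring peaks at 1 gene are not independent.

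Tfap2b and Tfap2a carried most of these bases. With 15000 cells, 3 of 5 Tfap2 bodies (Tfap2a, Tfap2b and Tfap2c) were at least 50% covered, against 2.75% of all genes, and with 500 cells 0 of 5 were, against 0.547%. Tfap2b (chr1:19208914-19238576, plus strand, 29.7 kb) encodes AP-2β, known for kidney, limb and ductus arteriosus development. Its body was 37.9% covered with 500 cells by narrow peaks spread over its length and 93.5% covered with 15000 cells. The uncovered 1932 bases of the body with 15000 cells lay in 5 gaps of 272 to 506 bp. Bodies at least 90% covered were found for 1.11% of all genes with 15000 cells, and Tfap2b was the 1 Tfap2 gene among them. With 500 cells they were found for 0.0319% of all genes and 0 of 5 Tfap2 genes. It ranked 25 of 21938 genes by covered body bases with 15000 cells and 23 with 500 cells. Coverage was similar on both sides of the body's midpoint, 91.8% before and 95.1% after it with 15000 cells and 33.5% and 42.3% with 500 cells. The peak across the start measured 8680 bp and reached 2411 bp upstream. A second wide domain of 13814 bp (chr1:19228556-19242369) ran across the 3′ end and overlapped 11 peaks of the 500-cell list, of which 10 lay wholly inside it.

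Tfap2a (chr13:40715302-40738376, minus strand, 23.1 kb) encodes AP-2α, known for neural crest and craniofacial development. Its body was 23.6% covered with 500 cells and 69.9% with 15000 cells, and with 15000 cells coverage fell from 90.6% before the midpoint to 49.3% after it. H3K27me3 extended past both ends. The peak across the start measured 8111 bp and reached 7863 bp upstream, and it ended 247 bp inside the gene, where a gap of 376 bp followed. Past the 3′ end, 71.3% of the downstream 20 kb was covered with 15000 cells and 43.5% with 500 cells, the highest downstream shares of the 5 genes. That flank held the widest peak of all Tfap2 windows, 14192 bp (chr13:40700764-40714955), which ranked 61 of 15282 by width and began 346 bp beyond the gene. It also held most of the widest 500-cell peak, 4430 bp across the 3′ end, ranked 47 of 10223. The annotated tables paired 15 of 24 and 6 of 8 Tfap2a peaks with the gene Gm26688 and not with Tfap2a.

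Tfap2c (chr2:172549593-172558622, plus strand) encodes AP-2γ, a regulator of trophoblast and germ cells, and is the shortest of the 5 at 9.03 kb. Its body was 22.1% covered with 500 cells and 59.2% with 15000 cells. The 15000-cell peak across its start was the widest of the 5 such peaks at 11452 bp, reaching 6338 bp upstream and 5113 bp downstream. This peak filled the whole 6001 bp around the start, and contained all 6 of the 500-cell peaks. Coverage with 15000 cells was 100% before the midpoint and 18.3% after it.

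Tfap2d (chr1:19103022-19166346, plus strand, 63.3 kb) encodes AP-2δ, known for midbrain and retinal development. It had the largest ratio between the libraries: 1054 bp of its window lay in peaks with 500 cells and 10461 bp with 15000 cells, a ratio of 9.93, where the other 4 genes had ratios from 2.04 to 2.78 and all peaks 4.03. The peak across the start measured 578 bp with 500 cells and 7944 bp with 15000 cells. Coverage was confined to the 5′ part of the gene in both lists, and the last 55 kb of the body held no peak. Consequently 0.679% and 10.8% of this long body was covered. The tables paired 2 of its 4 peaks in each list with the gene Gm15825, and the 15000-cell peak across the start was paired with both genes. Tfap2d lies 42.6 kb upstream of Tfap2b on the same strand, and 91.6 kb without a 15000-cell peak separated the last peak of Tfap2d from the first of Tfap2b.

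Tfap2e (chr4:126716006-126736240, minus strand, 20.2 kb) encodes AP-2ε, known for olfactory bulb development. With 15000 cells it had 1 peak, of 9327 bp (chr4:126729407-126738733), from 2493 bp upstream to 6833 bp inside the gene. With 500 cells the same interval held 3 peaks of 162, 2806 and 385 bp, and that of 2806 bp was the second widest 500-cell peak at the Tfap2 genes. Coverage of the body was 15.8% and 33.8%, with 0 past the midpoint in either list. The neighbouring genes Psmb2, a proteasome subunit 6.29 kb away, and Ncdn, a neuronal protein gene 7.51 kb away, had no peak in the body or within 3 kb of the start in either list.

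**Figure D2:**
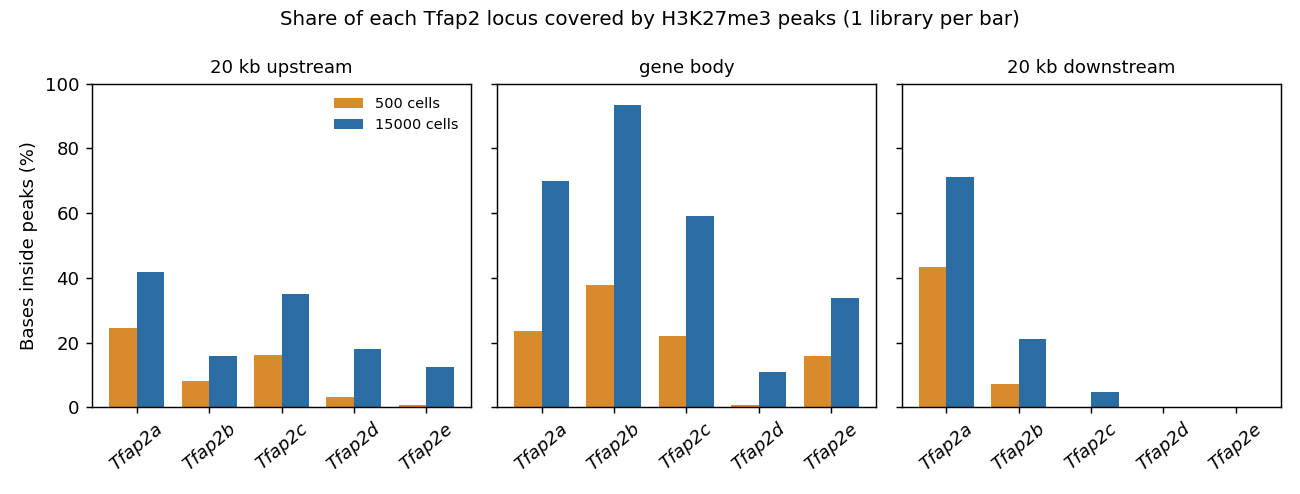
Share of bases inside H3K27me3 peaks in the 20 kb upstream, the gene body and the 20 kb downstream of each Tfap2 gene (y axis, percent, 1 library per bar), with orange bars for 500 cells and blue bars for 15000 cells. Body coverage with 15000 cells runs from 10.8% at Tfap2d to 93.5% at Tfap2b, and downstream coverage is highest at Tfap2a.

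By body coverage with 15000 cells the order was Tfap2b, Tfap2a, Tfap2c, Tfap2e and Tfap2d, as it was with 500 cells. With 1 library each, no spread is available to tell neighbours in this order apart, and Tfap2a and Tfap2c with 500 cells differed by little (23.6% and 22.1%). Within 3 kb of the start, 5412 (Tfap2b) to 6001 (Tfap2c) of 6001 bp were covered with 15000 cells, a range bounded by the window, which is narrower than the peaks across the starts. With 500 cells the range was 762 bp (Tfap2d) to 3570 bp (Tfap2a). The 5 genes have 23 annotated transcript starts, of which 23 lay in a peak with 15000 cells and 7 with 500 cells. Of the 93513 transcript starts of all protein-coding genes, 6.18% and 0.916% did, respectively. At Tfap2a, which has 9 starts spread over the first part of the gene, 2 were covered with 500 cells.

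**Figure D3:**
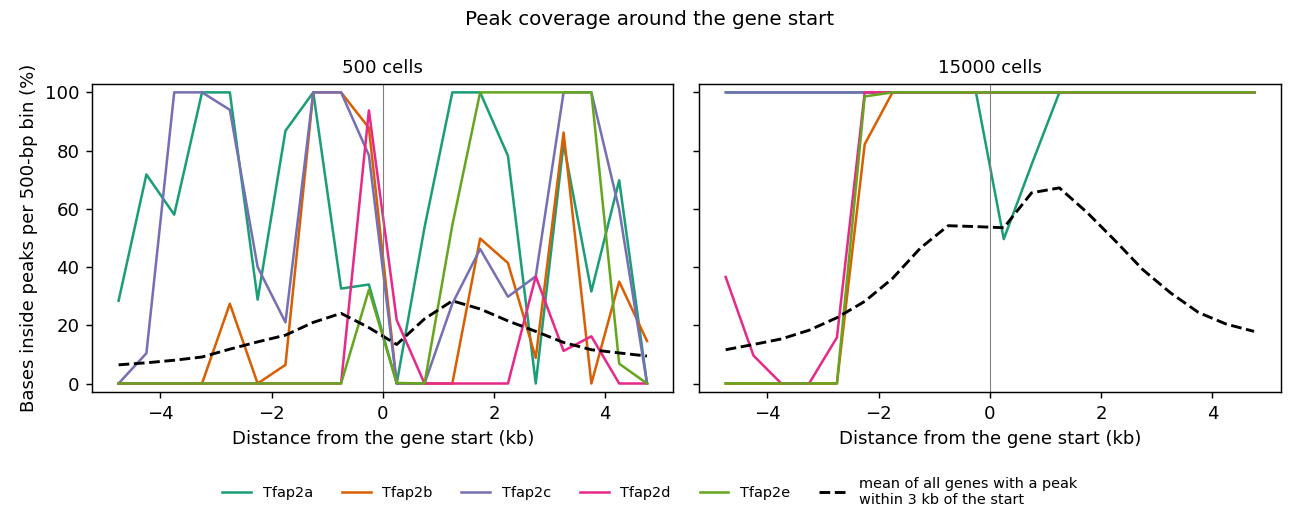
Percent of bases inside peaks per 500-bp bin (y axis) from 5 kb before to 5 kb after the gene start (x axis, kb) for the 5 Tfap2 genes (coloured lines) and the mean of all genes with a peak within 3 kb of the start (dashed). With 15000 cells the Tfap2 lines stay near the top around the start except for a dip at Tfap2a, and with 500 cells they break into separate peaks.

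The mean over the 2177 genes with a 500-cell peak near the start also dipped at the start, from 24.1% of bases in the second 500-bp bin upstream to 13.4% in the first 500 bp of the gene. With 15000 cells the mean over 3728 genes was 54.2% and 53.5% in the same bins. In the first 500 bp of the gene, Tfap2d had coverage above that 500-cell mean, and Tfap2a, Tfap2b, Tfap2c and Tfap2e had none or 1 base.

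Coding exons followed the bodies in part. With 15000 cells 90.7% of the coding bases of Tfap2b lay in peaks, 73% of Tfap2c, 53.5% of Tfap2a, 44.1% of Tfap2d and 42.4% of Tfap2e. With 500 cells the shares were 36.6% at Tfap2c, 23.4% at Tfap2b, 19.6% at Tfap2a, 3.92% at Tfap2e and 0% at Tfap2d. Tfap2c thus had the highest coding share with 500 cells, and Tfap2b with 15000 cells.

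Outside the Tfap2a window the next 15000-cell peak lay 339 kb upstream of the gene and 2360 kb downstream, and the next 500-cell peak 1564 kb and 2367 kb away. At Tfap2e these distances were 264 and 94.9 kb with 15000 cells and 429 and 414 kb with 500 cells. At Tfap2b they were 97.6 kb upstream, where the last peak of Tfap2d lies, and 1240 kb downstream with 15000 cells, and 102 and 3294 kb with 500 cells. At Tfap2c they were 302 and 54.7 kb with 15000 cells and 2051 and 65.6 kb with 500 cells. Upstream of Tfap2d the next peak was over 1 Mb away in both lists (1044 kb with 500 cells and 1043 kb with 15000 cells).

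Genes with the most similar start profiles, by the sum of absolute differences over 40 values (20 bins in each library), were Sim1, Hmx1 and Ptf1a for Tfap2a, and Foxe3, Galnt16 and Ccdc184 for Tfap2b. For Tfap2c they were Prdm12, Cdk5r2 and Cdx2, for Tfap2d Tchh, Lrrtm1 and Slc6a20a, and for Tfap2e Nhlh2, Hapln4 and Unc5b. These distances ran from 3.25 (Nhlh2 to Tfap2e) to 6.77 (Ptf1a to Tfap2a), where the median over 3963 genes with signal was 13.2 to 25.4. The measure describes peak shape alone.

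CpG density, which the choice of genes did not use, was higher inside the peaks than outside at each gene. Over the 5 windows it was 21.9 CpGs per kb in bases covered in both lists, 25.2 in bases covered with 15000 cells alone and 10.1 in bases without a peak, against 8.34 genome-wide. Tfap2c had the densest shared bases at 40 CpGs per kb, and Tfap2b the sparsest at 13.8. Bases found with 15000 cells alone were denser than shared bases at Tfap2a (31.5 and 21.1), Tfap2b (17 and 13.8) and Tfap2e (31.6 and 30.1), and less dense at Tfap2c (33.9 and 40) and Tfap2d (19.1 and 21.8). All peaks of the lists had 21.3 (500 cells) and 23.5 (15000 cells) CpGs per kb.

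**Figure D4:**
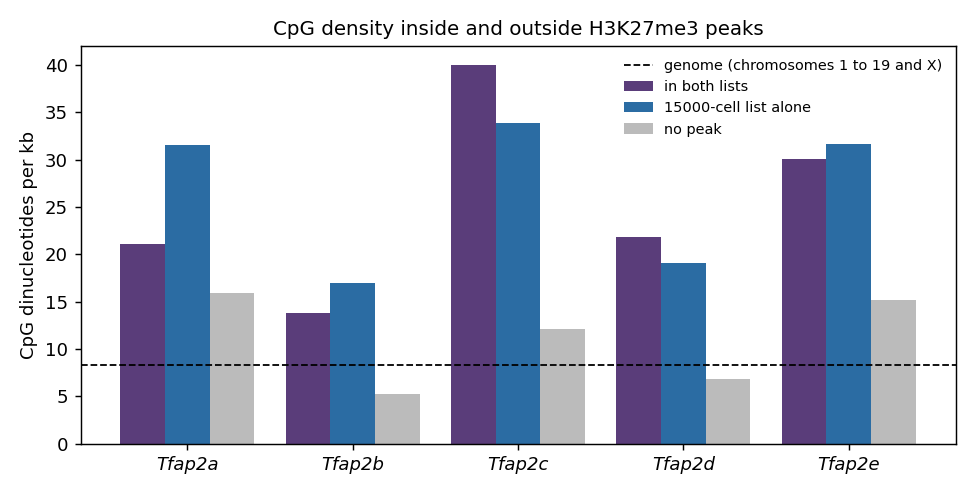
CpG dinucleotides per kb (y axis) at each Tfap2 gene with 20 kb on each side, for bases in peaks of both lists (purple), of the 15000-cell list alone (blue) and in no peak (grey), with the genome density as a dashed line. Purple and blue bars stand above the grey bar at all 5 genes.

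Beyond the 20 kb window, the tables assigned distal peaks to Tfap2c. The 309-kb interval between Tfap2c and Bmp7, a BMP ligand gene, held 10 peaks paired with Tfap2c in the 500-cell table (10281 bp) and 9 in the 15000-cell table (22811 bp), all downstream of Tfap2c. All 10 of the first and 3 of the second overlapped the other list, against 91.2% and 32.2% of all peaks. The widest of them, 15379 bp (chr2:172726450-172741828), began 168 kb past Tfap2c, ranked 50 of 15282 by width and was 61.2% covered by 9 peaks of the 500-cell list. No GENCODE gene lay over it. A further 8 peaks in each list within the interval were paired with Bmp7, so the pairing split the interval. The wide domain lay nearer to the start of Tfap2c (177 kb) than to that of Bmp7 (198 kb), but nearer to the body of Bmp7 (126 kb) than to that of Tfap2c. These data do not tie it to either gene.

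**Figure D5:**
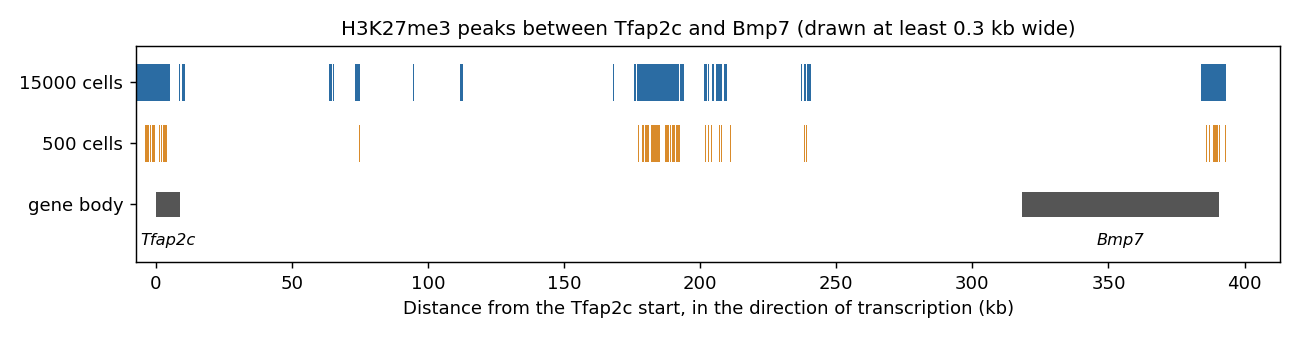
Peaks between Tfap2c and Bmp7 by distance from the Tfap2c start (x axis, kb), with 500-cell peaks in orange, 15000-cell peaks in blue and gene bodies in dark grey; peaks are drawn at least 0.3 kb wide. A wide blue domain, broken into orange peaks, lies in the interval away from both genes.

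Called peaks were few at the other immediate neighbours of the Tfap2 genes. Most genes lacked one too: 9.92% (500 cells) and 17% (15000 cells) of all genes had a peak within 3 kb of the start. Ofcc1 and Gcnt2 beside Tfap2a, Fam209 beside Tfap2c and Defb41 beside Tfap2d had no peak in the body or within 3 kb of the start. Pkhd1 beside Tfap2b had none near the start and 530 bp in its body with 15000 cells. Bmp7 was the exception, with 4 and 1 peaks within 3 kb of its start.

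Genes that work with AP-2 factors differed from one list to another. Among all genes 9.92% (500 cells) and 17% (15000 cells) had a peak within 3 kb of the start. Of 7 coactivators and inhibitors of AP-2 proteins, 0 had a peak within 3 kb of the start with 500 cells and 4 with 15000 cells. The latter were Cited1 and Cited4, from the family of transcriptional coactivators, and Kctd1 and Kctd15, which encode AP-2 inhibitors. Cited2, Ep300 and Crebbp had none. Over these 7 genes the median coverage within 3 kb of the start was 309 bp with 15000 cells. Of 12 neural crest and plate border genes, 10 and 12 had a peak, and their median coverage within 3 kb of the start with 15000 cells was 5116 bp, against 5580 bp for the Tfap2 genes. Of 8 trophoblast genes, 6 and 7 had a peak, with a median of 5504 bp, and Elf5 had none in either list. Of 9 surface ectoderm and epithelial genes, 4 and 5 had a peak, with a median of 1350 bp. Of 9 genes described as AP-2 targets, 4 had one in both lists (Egfr, Erbb2, Erbb3 and Mcam), and Kit, which EMPs express, had none. The median was 0 bp over the AP-2 targets and over all genes.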

How the data were processed

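H3K27me3 was profiled by CUT&RUN in 1 library from 500 EMPs and 1 from 15000 EMPs. For both, the authors mapped reads onto mm10 (Bowtie2 version 2.2.1) and ran MACS2 (version 2.1.2) in broad mode on each H3K27me3 library separately, with an IgG library as the control. The MACS2 p-value limit was 0.01 with 500 EMPs and 0.05 with 15000 EMPs. In broad mode MACS2 joins neighbouring enriched stretches, so the number and width of peaks depend on signal, depth and threshold together. The deposited files used here hold peak positions and tables pairing each peak with a gene and a distance in bp, with no score, read count or p-value per peak. The read support of a peak is therefore unknown here, and a peak was scored as present or absent. Per the study's methods the 500-cell sample was sequenced less deeply, with a smaller share of reads aligned. Signal tracks and IgG peaks were not used here.

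Gene and transcript positions came from GENCODE vM21 on GRCm38, the assembly of mm10, and coordinates are 1-based. Peaks were assigned to a gene by position (gene body with 20 kb on each side), and the gene start was the 5′ end of the annotated gene. Covered bases were counted once each, peaks overlapped where they shared at least 1 bp, and wide means over 5 kb. Intervals on shares are exact Clopper-Pearson (95%, SciPy version 1.17.1) and cover counting error only. Sequences were read with pysam (version 0.24.0), and Python (version 3.11.15) with matplotlib (version 3.10.9) drew the plots. The interval arithmetic was tested on simulated peaks. With 1 library per group, values are set side by side with no test. Windows of 3 and 50 kb, the paired gene symbol alone, any transcript start, joining of peaks, a larger minimum overlap and omission of the shortest peaks were tried as alternatives. Genes named for likeness were the 3 protein-coding genes, over 100 kb away, nearest to each Tfap2 gene over 20 bins of 500 bp around the start in both libraries. The genes and lists described here were chosen with earlier results of these data known. Comparisons with other transcription factor families are not reported here.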

Additional observations from a re-analysis of the deposited data

How the results depend on the processing

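Of 43 alternative values, 32 stayed within 1.5 times the reported count or length, or within the 95% interval of the reported share, and 11 moved further. All 5 genes had a peak in both lists under each window tried, from the paired gene symbol alone, and without the shortest peaks. Counting any annotated transcript start put a 500-cell peak over a start of 5 genes, as did joining 500-cell peaks within 3 kb, against 2 by the gene start and 2 after joining within 1 kb. By construction, joining gave fewer peaks: 26 (within 1 kb) and 8 (within 3 kb) of the 61 with 500 cells, and 12 and 7 of the 25 with 15000 cells. Joining within 3 kb also raised the covered length with 500 cells to 89673 bp. The overlap shares depended on the minimum. With at least 50% of both peaks required, 1.64% of the 500-cell peaks and 4% of the 15000-cell peaks overlapped. With at least 50% of the 15000-cell peak required, the share was 16%, and among 15000-cell peaks of at least 1 kb it was 87.5%.

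No paired analysis was possible because each group had 1 library and the values come from no test. A stricter p-value threshold could not be run, since the lists carry no p-value. Depth, instrument, read length, amplification and calling threshold all differed between the libraries, so none of them can be told apart from cell number, and a base outside a peak was not shown to lack H3K27me3.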
